A study of Rattus norvegicus with 2 samples.

Results

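The proteasome genes compared here were the 32 rat protein-coding genes with a symbol starting in Psma, Psmb, Psmc, Psmd, Psme, Psmf or Psmg whose level averaged at least 1 FPKM over both libraries. Psmb8 and Psmb9, which belong to the interferon-induced immunoproteasome, were left out by name. In the NCBI gene table for the assembly GRCr8, 52 genes carry such a symbol; 37 of them were listed in the files, and the other genes of the family were not analysed here. The 32 members are among 4366 genes that reached the same level, called measured genes below. FPKM is the number of sequenced fragments of a gene relative to its transcript length and to the size of the library, so levels of different genes can be compared. In the sentences below the control value stands first.

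RNA was sequenced from H9c2, a myoblast line from embryonic rat heart, grown in serum-containing medium and then kept for 12 h without serum. The control culture had 0.9 mM phosphate and the high phosphate culture 2.5 mM. Each had 1 library, so the differences below have no replicates behind them and were not tested. The number of reads behind a value is unknown, because the files give FPKM rounded to 0.01 and no counts.

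All listed FPKM added up to 307622 (control) and 346857 (high phosphate). The muscle marker Des, desmin, had 128.5 and 153.3 FPKM, and the myogenic factor Myod1 had 6.11 and 1.59 FPKM. The other listed muscle markers were low, with Acta1 at 1.57 and 1.64 FPKM and Myog at 0.13 and 0.06 FPKM. The cardiac myosin gene Myh7 was listed at 0 in both, while the other cardiac markers in the list (Nkx2-5, Gata4, Tnnt2, Myh6 and Actc1) were not analysed here. Of the other cell type lists, 5 of 7 fibroblast markers were listed and summed to 4012 and 4411 FPKM, most of it S100a4 at 3291 and 3249 FPKM. The other 3 measured fibroblast markers were higher in high phosphate on both scales used below: Col3a1 with 489 and 844 FPKM, Col1a1 with 0.79 and 1.8 FPKM, and Thy1 with 232 and 317 FPKM, while Pdgfra was at 0 in both. The 3 listed macrophage markers summed to 1.06 and 1.47 FPKM with Ptprc at 0 in both, the 4 listed endothelial markers to 0.08 and 0.36 FPKM, and the 3 listed epithelial markers to 139.9 and 246.7 FPKM, nearly all of it Krt8. The part of these markers in the results was not tested. In cultures measured in bulk, fewer cells of a type and less RNA per cell cannot be told apart.

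The proteasome is the protease that degrades ubiquitin-tagged proteins in the cytosol and nucleus. Its core particle is a barrel of alpha rings, which gate the entry, around beta rings, which hold the catalytic sites. A regulatory particle caps the barrel: its base contains a ring of ATPases that unfold the substrate, and its lid removes ubiquitin. Other caps (activators) can open the core without ATP, and dedicated chaperones (assembly factors) help to build both particles. In striated muscle the ubiquitin-proteasome system turns over contractile proteins, and the genes of its subunits are known to be transcribed together, with NFE2L1 and NF-Y among the factors that read their promoters.

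Promoter windows from RefSeq (build GRCr8, 250 bases before to 50 after the gene start) were found for 28 of the 32 members, all but Psma7, Psmd6, Psmd12 and Psmd14. Windows of 4 members that the results below turn on are printed 5′ to 3′ in the direction of the gene. They belong to the catalytic core subunit whose level differed least (Psmb5, chr15:32047330-32047629, minus strand), the interferon-inducible core subunit (Psmb10, chr19:50743243-50743542, minus strand), the lid subunit with the lowest log2 ratio (Psmd7, chr19:52411267-52411566, minus strand) and the activator with the highest (Psme1, chr15:33038721-33039020, plus strand). Capitals mark matches, on either strand, to the antioxidant response element core TGACNNNGC, which NFE2L1 and NFE2L2 read, the NF-Y box CCAAT, and the interferon-stimulated response element core, which is GAAA, any 2 bases and GAAA again.
Psmb5: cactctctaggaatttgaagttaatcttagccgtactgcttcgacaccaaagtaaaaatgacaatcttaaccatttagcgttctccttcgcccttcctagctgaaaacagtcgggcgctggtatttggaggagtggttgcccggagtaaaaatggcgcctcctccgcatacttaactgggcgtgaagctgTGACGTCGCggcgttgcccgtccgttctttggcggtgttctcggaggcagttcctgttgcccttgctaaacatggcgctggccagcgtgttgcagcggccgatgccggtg
Psmb10: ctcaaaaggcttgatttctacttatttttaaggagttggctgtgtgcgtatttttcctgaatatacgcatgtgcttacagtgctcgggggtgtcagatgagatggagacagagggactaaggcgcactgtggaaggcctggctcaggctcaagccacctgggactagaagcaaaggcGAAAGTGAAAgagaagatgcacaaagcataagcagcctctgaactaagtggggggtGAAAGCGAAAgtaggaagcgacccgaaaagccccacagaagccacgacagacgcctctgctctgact
Psmd7: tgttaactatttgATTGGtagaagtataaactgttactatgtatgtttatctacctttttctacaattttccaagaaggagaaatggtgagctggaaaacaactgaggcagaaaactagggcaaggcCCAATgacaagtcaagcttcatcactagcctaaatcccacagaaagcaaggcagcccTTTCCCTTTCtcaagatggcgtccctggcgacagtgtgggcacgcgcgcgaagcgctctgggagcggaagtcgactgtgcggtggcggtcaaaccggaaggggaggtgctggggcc
Psme1: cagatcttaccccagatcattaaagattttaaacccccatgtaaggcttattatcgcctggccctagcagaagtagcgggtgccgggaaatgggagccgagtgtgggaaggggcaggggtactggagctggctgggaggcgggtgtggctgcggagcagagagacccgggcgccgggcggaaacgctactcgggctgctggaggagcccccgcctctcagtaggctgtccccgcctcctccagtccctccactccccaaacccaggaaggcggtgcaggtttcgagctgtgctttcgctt

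In these windows Psmb5 held 1 match to the antioxidant core, 60 to 52 bases before the start. Psmb10 held 2 interferon cores, 73 to 64 and 17 to 8 bases before the start, and Psmd7 held 2 CCAAT boxes and 1 interferon core. The Psme1 window held none of these letters. Over the 28 members, CCAAT occurred in 17 windows (60.7%), against 39.7% of 3609 measured genes and 37.7% of all 27456 promoter windows in the table. The 17 include Psmc3ip and Psme3ip1, which are not proteasome parts. The interferon core occurred in 4 windows (14.3%), those of Psma4, Psmb3, Psmb10 and Psmd7, against 3.27% and 3.77%. The antioxidant core occurred in 2 (7.14%), Psmb2 and Psmb5, against 15.7% and 12.2%. The GC box GGGCGG was in 20 windows (71.4%, against 64.4% and 34.9%), and the STAT motif TTCNNNGAA in 2 (7.14%, against 6.76% and 8.68%). Overlaps between motifs were not counted, and a match describes letters, not a bound site.

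Across the 32 members the levels of the libraries were close. The difference was measured as log2((high phosphate FPKM + 1)/(control FPKM + 1)), called the log2 ratio, and it ran from -0.33 to 0.34. No member was 2-fold apart on this scale, where 1.76% of measured genes were at least 2-fold higher and 0.87% at least 2-fold lower (77 and 38 genes, or 54 and 56 with the libraries at the same FPKM sum). No member was 1.5-fold apart either, against 7.21% higher and 3.37% lower of all measured genes. In listed FPKM, 22 members lay within 10% of the control, 7 were 10% to 20% away and 3 were further away: Psma8, Psme1 and Psme3.

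Most of these small differences pointed down. As deposited, 25 of 32 members were lower in high phosphate and 7 higher, where 49.4% of measured genes were lower and 50.5% higher. The median log2 ratio of the members was -0.09, and that of all measured genes was 0.00. The direction of single members depended on how the libraries were scaled: with the libraries at the same FPKM sum, which moved the median of all measured genes to -0.15, 31 of 32 members were lower, against 67.8% of measured genes, and only Psme1 was higher, against 32.2%. Relative to the median of all measured genes, the member median lay at -0.10 as deposited and -0.12 at the same sum. A common scale factor shifts both medians nearly alike, so the second value is no separate evidence for the first. Here the factor multiplies every high phosphate value by 0.887, so a gene lower as deposited is necessarily lower at the same sum. The median was -0.09 with and without Psmc3ip and Psme3ip1, which carry a proteasome symbol but are not proteasome parts.

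The members were abundant. Their median level of 104 FPKM compares with 14.0 FPKM over all measured genes, and 28 of them averaged 20 FPKM or more. The 1771 measured genes that averaged at least 20 FPKM, a limit chosen after the values were seen, were not matched in level. Their median level was 51.4 FPKM, against 112 FPKM for the 28 members. Of the 1771 genes, 45.4% were lower in high phosphate and the median log2 ratio was 0.03, against 22 of 28 members and a member median of -0.09. All 28 members lay inside the central 95% of log2 ratios of those genes, which ran from -0.46 to 0.77. Their standard deviation across genes was 0.13, against 0.31 for the 1771 genes. Together the 32 members held 1.00% of the listed FPKM at 0.9 mM phosphate and 0.851% at 2.5 mM. Their summed FPKM was 3081 and 2950, a ratio of 0.958, while that of all measured genes was 1.12. Sums weigh the most abundant genes most: the median FPKM of all measured genes was 14.0 in the control and 13.9 in high phosphate.

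**Figure D1:**
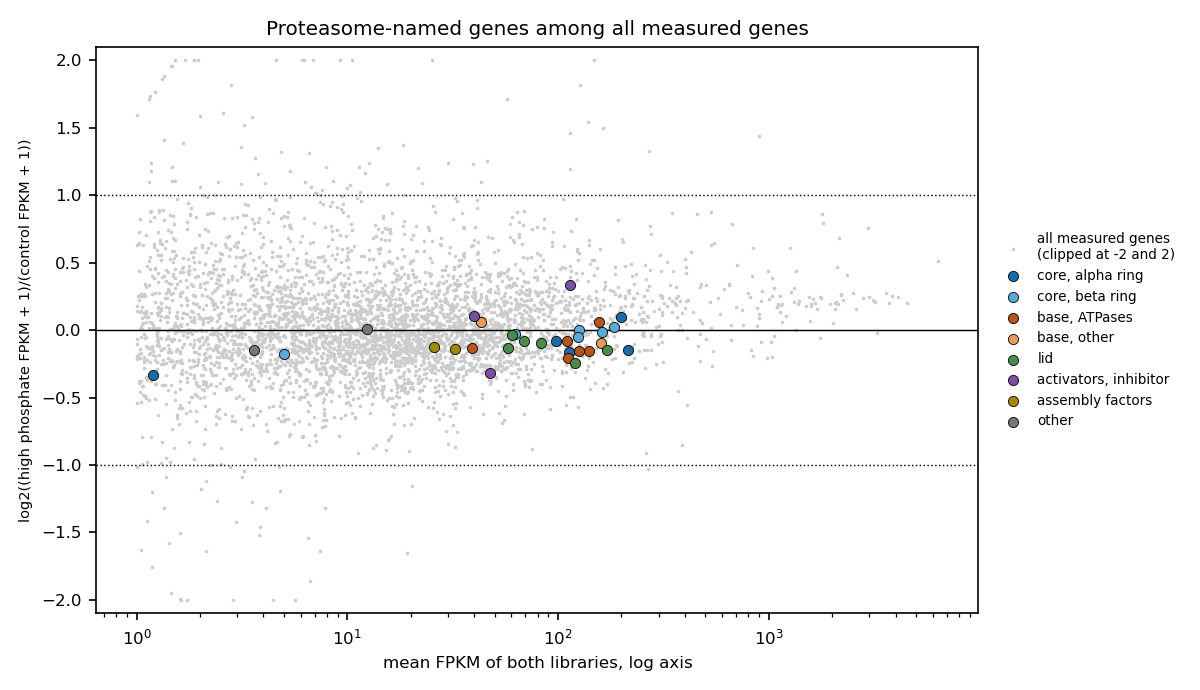
Log2 ratio (high phosphate over control, 1 added to FPKM) against mean FPKM on a log axis, for 4366 measured genes (grey) and the 32 proteasome-named genes (coloured by structural group); dotted lines mark 2-fold. The coloured points lie between -0.33 and 0.34, most of them just under 0 and to the right of the bulk of the genes.

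In the core, most beta subunits had nearly the same level in both libraries. Psmb5, which carries the chymotrypsin-like site and whose window with an antioxidant core is printed above, had 125.4 FPKM at 0.9 mM and 125.3 FPKM at 2.5 mM phosphate. Psmb7, which carries the trypsin-like site, was listed at 127 and 122 FPKM. Psmb10, the interferon-inducible counterpart of Psmb7, was listed at 63.3 and 62.2 FPKM. The differences of these 3 catalytic subunits from the control were between -3.45% and -0.080%. Psmb6, which carries the caspase-like site, was not analysed here.

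Of the structural beta subunits, Psmb2 was the most abundant, at 182 and 185 FPKM, and Psmb3 was listed at 162 and 160.0 FPKM. Psmb1, the least abundant, was listed at 5.4 and 4.67 FPKM, far under the other subunits of its ring, and had the lowest log2 ratio of the beta group (-0.17). Every assembled core holds each of these subunits in equal number, so the listed levels did not follow the make-up of the particle. The median log2 ratio of the 6 beta members was -0.02. Of them 5 were lower as deposited, beside 49.4% of measured genes, and 6 at the same sum, beside 67.8%.

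The alpha subunits had a lower median, -0.15 over 5 members, which include Psma8 near the level minimum. Of these members 4 were lower as deposited, beside 49.4% of measured genes, and all 5 at the same sum, beside 67.8%. Psma1 had the highest mean level of all members, with 227 FPKM at 0.9 mM and 205 FPKM at 2.5 mM phosphate. Psma4 was listed at 119 and 106 FPKM (log2 ratio -0.16) and Psma2 at 101 and 95.4 FPKM. Psma7 went the other way as deposited, at 193 and 207 FPKM (log2 ratio 0.10), so that it stood above Psma1 in the high phosphate library, and its log2 ratio was -0.07 at the same sum. Psma8, a form of the Psma7 subunit known from testis, was listed at 1.45 and 0.95 FPKM and had the lowest log2 ratio of all members as deposited, -0.33, while at the same sum Psme3 and Psmd7 lay below it (-0.48 and -0.42, against -0.41); with a mean of 1.2 FPKM it was also the member nearest to the level minimum. Over alpha and beta members together the median was -0.05 and the summed FPKM went from 1306 to 1274. From a mean of 5 FPKM, which leaves out Psma8, the core median was -0.04.

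**Figure D2:**
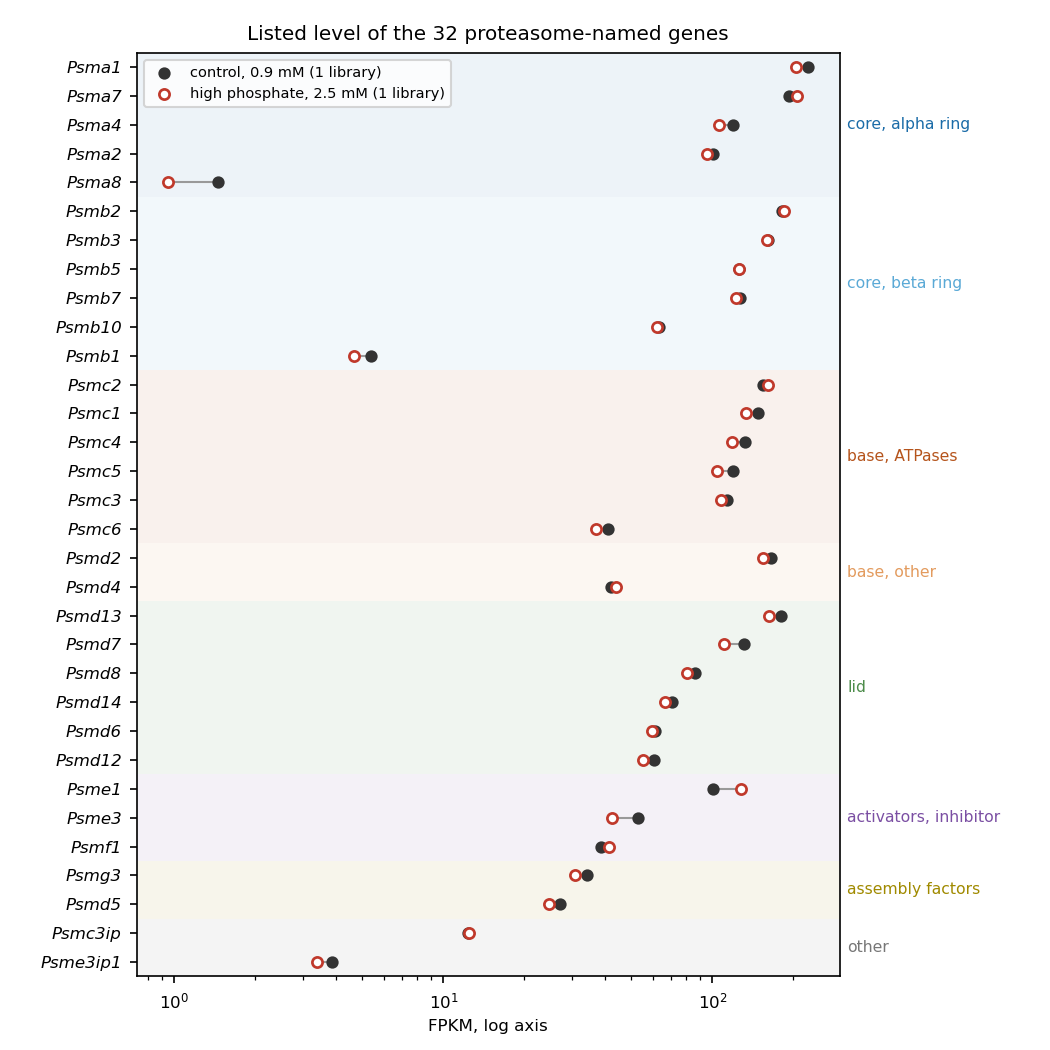
Listed FPKM on a log axis of each of the 32 genes in the control (filled) and high phosphate library (open), 1 library each, ordered by structural group and level. Most genes lie between 24.7 and 227 FPKM with the points of both libraries close together, while Psma8, Psmb1 and Psme3ip1 lie under 6 FPKM.

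The base ring of ATPases was the only structural group with every gene measured. Its 6 members had a median log2 ratio of -0.14. As deposited 5 were lower, beside 49.4% of measured genes, and at the same sum 6, beside 67.8%. Psmc5 (Rpt6) differed most, at 119.7 and 104 FPKM (log2 ratio -0.20). Psmc1 was listed at 148 and 133 FPKM, Psmc4 at 132 and 118 FPKM and Psmc3 at 114 and 107 FPKM. Psmc2 (Rpt1) was the most abundant of the ring and the 1 member higher as deposited, at 154 and 160.5 FPKM, with log2 ratios of 0.06 as deposited and -0.11 at the same sum. Psmc6 was the least abundant, at 40.8 and 37.0 FPKM, although the ring holds each ATPase once.

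Outside the ring, the base scaffold Psmd2, which docks ubiquitin shuttles, was listed at 165 and 155 FPKM. Psmd4 (Rpn10), a ubiquitin receptor between base and lid, was listed at 42.0 and 43.9 FPKM, higher as deposited and lower at the same sum (log2 ratios 0.06 and -0.11). The base as a whole had a median log2 ratio of -0.11, or -0.13 without Psmd4.

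All 6 lid members with a Psmd symbol were lower as deposited, beside 49.4% of measured genes, with a median log2 ratio of -0.11. They were therefore also lower at the same sum, beside 67.8% of measured genes. Psmd7 (Rpn8), the partner of the deubiquitinase and the gene whose window with CCAAT boxes is printed above, had the lowest ratio of the abundant core, base and lid genes, at 131 and 110.4 FPKM (log2 ratio -0.25). The deubiquitinase itself, Psmd14 (Rpn11), was listed at 70.8 and 66.9 FPKM (-0.08). Psmd13 was the most abundant lid gene, at 180.4 and 162 FPKM (-0.15). Psmd8 was listed at 85.9 and 80.5 FPKM and Psmd6 at 61.3 and 59.7 FPKM, the smallest difference of the lid. Psmd12 was the least abundant, at 60.8 and 55.4 FPKM. The summed FPKM of the lid went from 590.3 to 535, a ratio of 0.907, against 0.938 for the base and 0.975 for the core. With Sem1, the small lid subunit that carries another symbol and is described below, the lid summed to 799 and 781 FPKM, a ratio of 0.978, and its median log2 ratio was -0.09.

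The activators gave the widest spread of any group, in both directions. Psme1, a subunit of the interferon-inducible PA28 cap, was the highest of all members, at 100.4 and 127 FPKM, with log2 ratios of 0.34 as deposited and 0.17 at the same sum. Psme3, which forms the nuclear PA28 gamma cap, lay at the other end, at 52.8 and 42.2 FPKM (-0.32 and -0.48). Psmf1, which encodes the core-binding protein PI31, first described as an inhibitor, was listed at 38.5 and 41.4 FPKM, with a log2 ratio of 0.10 as deposited and -0.07 at the same sum. Their median of 0.10 is the value of Psmf1; without it the median of the other activators was 0.01.

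Among the subunits of the immunoproteasome that the rule left out, Psmb9 was listed at 36.9 and 59.9 FPKM (log2 ratio 0.68) and Psmb8 at 13.04 and 12.36 FPKM (-0.07). With Psmb10 at -0.02 and Psme1 at 0.34, the interferon-inducible genes of the system therefore had ratios on both sides of 0 as deposited. At the same sum, Psmb9 remained above 0 (0.51) and Psmb8 below it (-0.23).

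Only 2 of 7 assembly factors were listed. Both were lower in high phosphate as deposited, beside 49.4% of measured genes, and therefore also at the same sum, beside 67.8%. Psmg3, part of the chaperone that builds the alpha ring, was listed at 34.2 and 30.9 FPKM (log2 ratio -0.14). Psmd5, a chaperone of the base ATPases, was listed at 27.02 and 24.73 FPKM (-0.12). The other factors (Psmg1, Psmg2, Psmg4, Psmd9 and Psmd10) were not analysed here.

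The remaining members by symbol are not proteasome parts. Psmc3ip, a factor of meiotic recombination, was listed at 12.4 and 12.5 FPKM, and Psme3ip1, which binds PA28 gamma, at 3.84 and 3.38 FPKM. Both lay within the range of the proteasome subunits.

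**Figure D3:**
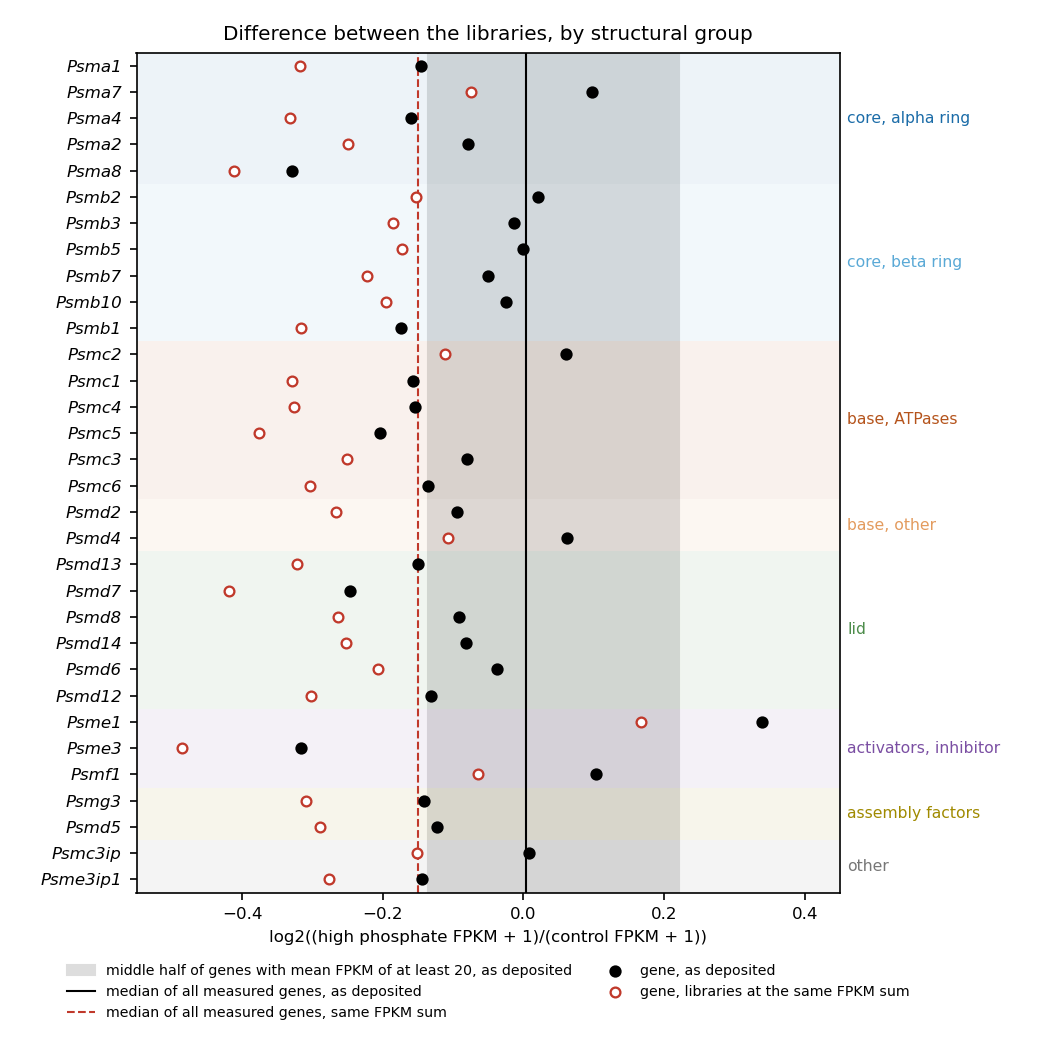
Log2 ratio (high phosphate over control, 1 added to FPKM) of the 32 genes by structural group, as deposited (filled) and with both libraries at the same FPKM sum (open); the grey band is the interquartile range, as deposited, of the 1771 genes that average 20 FPKM or more, and the lines are the medians of all measured genes. All 6 lid genes lie left of 0 as deposited, and therefore also at the same sum. As deposited, 4 beta subunits lie within 0.03 of 0, and Psme1 and Psme3 lie at opposite ends of the activators.

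A further 5 genes that carry the symbols were listed under the level minimum and are given as listed, since a value near 0 can be a failed estimate. Psma6, an alpha subunit that every core needs, was listed at 0 and 0.32 FPKM. Psme2, the partner of Psme1 in the PA28 cap, was listed at 0 and 0.29 FPKM, and the lid subunit Psmd11 at 0.59 and 0.28 FPKM, which with a mean of 0.435 FPKM was the nearest to the minimum from below. The PA200 activator Psme4 was listed at 0.13 and 0.14 FPKM, and the thymus subunit Psmb11 at 0.04 and 0 FPKM. The NCBI table holds 5 pseudogenes named after Psma6 and 3 named after Psme2, but none named after Psmd11, Psmb1 or Psme4. The labels and headers do not say how reads shared with such copies were handled, and the part of the copies in these values was not tested. Among members with large values, Psmb3 had 7 such pseudogenes and Psme3 had 4.

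Split by the promoter letters, the members had these values. The median log2 ratio was -0.14 over the 17 members with a CCAAT box and -0.09 over the 11 without. The 4 members with an interferon core had a median of -0.09 and the other 24 a median of -0.11. For the GC box the medians were -0.11 over 20 members with it and -0.08 over 8 without. The antioxidant core and the STAT motif were each in 2 members, with medians of 0.01 and -0.19, against -0.13 and -0.09 over the 26 members without. With so few genes and 1 library per condition these are descriptions only.

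Genes that work with the proteasome but carry other symbols were taken from a list of 39, of which 18 were listed and 17 measured. Of these, 13 were lower and 4 higher as deposited, where 49.4% of measured genes were lower and 50.5% higher. At the same sum 14 were lower and 3 higher, against 67.8% and 32.2%. Their median log2 ratio was -0.13 as deposited and -0.29 at the same sum, beside 0.00 and -0.15 for all measured genes. At least 2-fold lower was 1 of the 17, and none was 2-fold higher, beside the shares of 0.87% and 1.76% given above for all measured genes.

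That gene was Uba1, the main enzyme that activates ubiquitin, listed at 7.08 and 2.53 FPKM (log2 ratio -1.19). Its mean of 4.8 FPKM is low, so the unknown read depth limits this value, and a minimum mean of 5 FPKM leaves it out. Uba6, the other activating enzyme, was listed at 7.93 and 7.3 FPKM (-0.11). The ubiquitin shuttle Rad23b was listed at 96.8 and 88.0 FPKM (-0.14). Zfand2a, a heat- and arsenite-inducible proteasome adaptor, was listed at 37.5 and 23.7 FPKM (-0.64). The shuttle receptors Rad23b, Ubqln2 and Ubqln4 were lower as deposited, and therefore also at the same sum.

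Highest in the list were Nsfl1c, a cofactor of the p97 unfoldase, at 11.1 and 14.4 FPKM (0.34), the NF-Y subunit Nfyb at 11.7 and 14.5 FPKM (0.29), and Sem1, the small lid subunit, at 208 and 246 FPKM (0.24). All 3 were also higher at the same sum. Sem1 thus lay above 0 while the 6 lid genes with a Psmd symbol lay below it. The unfoldase gene Vcp itself was listed at 158 and 145 FPKM (-0.13). Nfe2l1, Pomp and Adrm1, a transcription factor, an assembly factor and a subunit of the same system, were not analysed here.

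**Figure D4:**
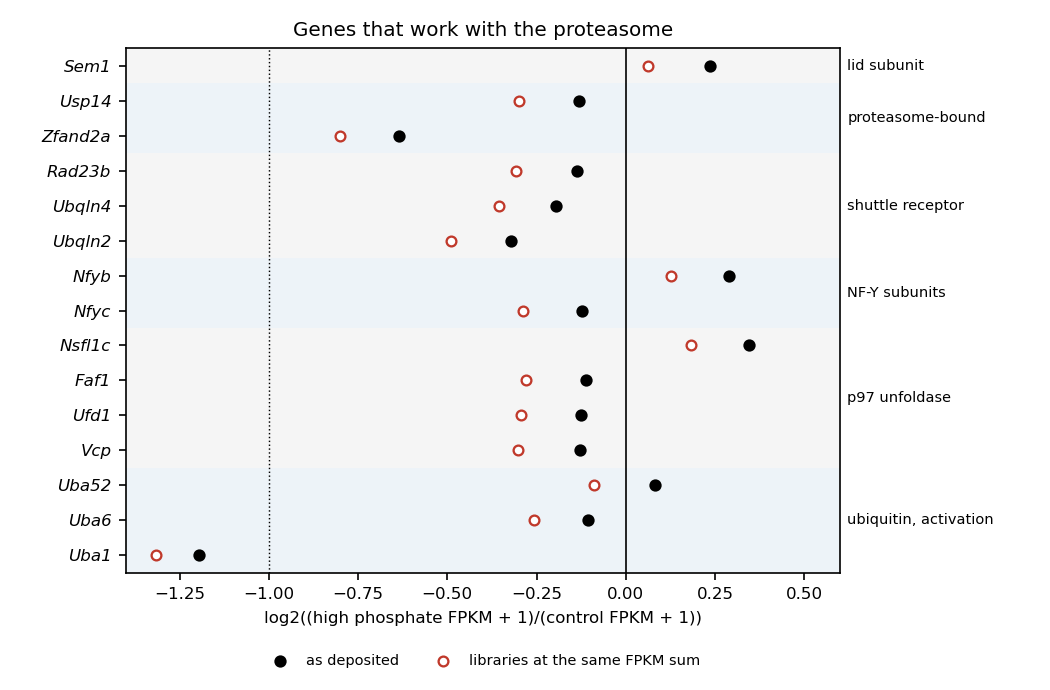
Log2 ratio (high phosphate over control, 1 added to FPKM) of 15 of the 17 measured partner genes by role, as deposited (filled) and at the same FPKM sum (open); the dotted line marks 2-fold lower. Uba1 lies beyond the line at -1.19, and Nsfl1c, Nfyb and Sem1 lie above 0 on both scales.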

How the data were processed

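The authors deposited FPKM per gene for 1 control and 1 high phosphate library, per the file headers, rounded to 0.01. Cufflinks 2.2.1, Cuffdiff, TopHat2 2.1.1, bcl2fastq and the build Rnor_6.0 are named, without roles, in the submitters' processing notes. Not given in the sources used here are the annotation, the strand setting, the handling of multiply mapped reads and any scaling between libraries. Each file held 8039 entries; 236 without a usable gene identifier were left out, and 7746 of the other 7803 matched a symbol in the NCBI table for GRCr8, used for names, chromosomes, gene order, pseudogene entries and promoter windows. Where a gene had several promoter windows, the first was used.

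Log2 ratios used FPKM + 1 for genes averaging 1 FPKM or more, which understates differences of low genes. Read depth is unknown, so counting intervals could not be computed. With 1 library per condition there was no test. Named were the most and least abundant and the highest and lowest member of each structural group, the catalytic subunits, all activators and assembly factors, the 3 highest and lowest partner genes, and Nfe2l1, Pomp, Adrm1 and Sem1. A few partner genes are left unnamed, though counts and medians include them. The other members, and Rad23b, Uba6 and Vcp, were added after their values were seen. The members, lists and motifs were chosen with earlier results of these data known. Alternatives were other pseudocounts, rescalings, filters, fold thresholds and group memberships. The calculation was tested on simulated data whose planted changes were larger than the log2 ratio of any member. That test does not bear on differences as small as those of the members. Python 3.11.15, numpy 2.4.6, pandas 2.3.3 and matplotlib 3.10.9 were used.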

Additional observations from a re-analysis of the deposited data

How the results depend on the processing

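The member and group values were recomputed with pseudocounts of 0.1 and 0.5, 3 rescalings, other filters on low values, a 1.5-fold threshold and other memberships. Of 140 such values, 122 stayed within 1.5 times the count, 10 percentage points or 0.1 log2 units, and 18 moved further. The limit of 0.1 log2 units is as large as several of the medians themselves. Some settings also cannot change some values, such as medians under another fold threshold. The 122 is therefore no measure of how stable the small differences are. At the same FPKM sum the members higher were 1, and medians were -0.27 for all members, -0.22 for the core, -0.29 for the base, -0.28 for the lid, -0.065 for activators and inhibitor, -0.30 for assembly factors, -0.29 for partner genes and -0.15 for all measured genes, of which 67.8% were lower. At the same upper quartile 27 of 32 members were lower, against 52.4% of measured genes. Over all measured genes, those at least 2-fold higher and lower numbered 77 and 38 as deposited, 54 and 56 at the same FPKM sum, 151 and 62 with a pseudocount of 0.1, 41 and 8 from a mean of 5 FPKM, and 16 and 2 from a mean of 20 FPKM, a setting chosen, like the lid with Sem1, after seeing the data. They numbered 315 and 147 at 1.5-fold. These shifts follow from the settings themselves, which apply a common scale factor, a smaller added value, fewer genes or a lower threshold. No member was past the 2-fold threshold in any of these settings, or past 1.5-fold with the other settings as deposited. No paired analysis was possible because each phosphate level had 1 library. The unknown depth limits the low values most, those of Psma8, Psme3ip1 and Psmb1 among the members and that of Uba1 among the named partner genes.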

Other observations

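The 32 members lie on 14 chromosomes in the NCBI table, so they are not 1 gene cluster. Psmb5 and Psmb11 are neighbours with no protein-coding gene between them and were listed at very different levels, with means of 125 and 0.02 FPKM. Psme1 and Psme2 are also close, with 1 protein-coding gene between them. Both encode subunits of the PA28 cap, and they had means of 114 and 0.145 FPKM. The promoter windows of the members had a median GC content of 54.2%, against 60.7% for measured genes and 52.3% for all windows in the table. Their median ratio of observed to expected CpG was 0.761, against 0.789 for measured genes and 0.417 for all windows.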
